A study of Homo sapiens with 26 samples.

Results

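The zinc-finger genes of human chromosome 19 were described in HEK293T cells, in total mRNA, in ribosome footprints, and in the mRNAs and footprints recovered with ribosomes labelled at the endoplasmic reticulum (ER), at the outer mitochondrial membrane (OMM) or in the cytosol. Members are protein-coding genes whose symbol is ZNF followed by a number and which the RNA-seq tables place on chromosome 19. They also needed a mean of at least 64 reads over the 7 RNA-seq total inputs, and 184 of the 240 such genes reached it, among 60663 genes in all. The nearest genes below the minimum were ZNF709 with a mean of 62.7 reads and ZNF813 with 48.1, and the nearest above it were ZNF223 with 68.4 and ZNF528 with 69.3. The rule used total inputs only, and no pulldown.

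In LOCL-TL, a biotin ligase that works only under blue light (LOV-BirA) biotinylates nearby ribosomes through an Avi tag on RPL29, a protein of the large subunit, and streptavidin then recovers them from the lysate. HEK293T is an established line from human embryonic kidney. LOV-BirA was fused to Sec61β for the ER, fused to the transmembrane domain of OMP25 for the OMM (libraries named mito), or expressed without a fusion for the cytosol. The ER construct was under the SFFV promoter and the others under EF1α, all brought in by lentivirus into polyclonal lines, so that construct and location cannot be told apart. Ribosome profiling had 2 replicates for each of the 3 locations, each with a total input and a pulldown, and cycloheximide (CHX), which stops elongation, was present. RNA-seq of whole mRNAs used the OMM construct in 3 genotypes with CHX, 2 replicates each: wild type with a neg control gRNA (WT), AKAP1 null and LARP4 null, each null being 1 monoclonal line. CHX for the null lines is taken from the general protocol. Cells without CHX gave 1 more lysate, whose labelling time was also shorter. Its labels name no genotype or gRNA, and wild type is assumed here. AKAP1 is a protein of the OMM that binds RNA and LARP4 a cytoplasmic protein that binds mRNA. The study calls the OMM replicates of ribosome profiling biological, and whether those of the RNA-seq were separate cultures is not given in the sources used here, so p-values measure the spread between these lysates.

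RNA-seq libraries held 38347615 to 100840544 reads in genes, with a median of 518.5 to 1577 reads per member. Ribosome profiling libraries held 1025114 (OMM pulldown, replicate 1) to 19539527 estimated counts in coding sequences (CDS). Total inputs held 20.3 to 32.2 CPM (reads scaled to the library total) of AKAP1 in the AKAP1 null line against at least 86.3 elsewhere, and 74.0 to 79.3 CPM of LARP4 in the LARP4 null line against at least 211 elsewhere. Of the 6 markers listed for HEK293T, all were detected (VIM at 442 to 692 CPM, KRT8 at 3.88 to 20.3). Of 6 markers of other cell types, HBG1 was at 0 and PTPRC, ALB, PECAM1 and CD34 did not exceed 1.17 CPM, while COL1A1 was at 7.16 to 23.1 CPM. The pulldown of LARP4 null replicate 2 stood apart from the others with CHX: MALAT1, a nuclear RNA, was at 5275 CPM there, against 918 to 1513 in the other 5. Results of the LARP4 null line are therefore given with and without it.

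Zinc-finger proteins of this kind carry arrays of C2H2 fingers, each folded around a zinc ion and able to contact a few bases of DNA, joined by short linkers whose commonest form reads TGEKP. Many also carry a KRAB domain, which recruits the co-repressor TRIM28 and, through it, the histone methyltransferase SETDB1 and heterochromatin proteins. The family spread by tandem duplication, so that its genes stand in clusters along chromosome 19, and many of its proteins bind and silence transposable elements. Those that act as DNA-binding repressors do so in the nucleus.

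The members' proteins held a median of 12 fingers (1 to 31) in 592.5 residues (170 to 1379). A TGEKP linker was found in 154 of the 184 members and a strict KRAB A-box pattern in 119. That pattern misses variants, among them those of ZNF224, ZNF649 and ZNF45. The CDS of a member held a median of 42.8% G+C (35.97 to 74.97), against 52.1% over the 12249 protein-coding genes with a mean of at least 64 reads. The base composition was not uniform, since 23 members lay at 60% or above.

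Because these genes are copies of one another, stretches of their CDS cannot be told apart by a short read. The linker shows this best, since it recurs up to 24 times in 1 protein. The authors counted ribosome footprints of 27 to 36 nt and masked positions that are not unique at 28 nt, with 1 mismatch allowed. Windows of 28 nt around the linker codons are therefore shown, with the codons for TGEKP in capitals. They are from GENCODE 44 on GRCh38, 5′ to 3′ on the gene's strand. Shared windows and runs were counted by exact match, a narrower measure than the authors' masking. All lie in the CDS. The first is shared by ZNF431 and ZNF91 at chr19:21183481-21183508 (+) and chr19:23359992-23360019 (−), and the second by ZNF146 and ZNF543 at chr19:36236970-36236997 (+) and chr19:57328961-57328988 (+). ZNF566 at chr19:36449464-36449491 (−) and ZNF460 at chr19:57291779-57291806 (+) are among the members that changed most below. ZNF865 at chr19:55614730-55614757 (+) and ZNF837 at chr19:58368155-58368182 (−) went the other way.
ZNF431, ZNF91: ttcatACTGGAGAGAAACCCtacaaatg
ZNF146, ZNF543: ttcacACTGGAGAGAAACCCtatgaatg
ZNF566: ttcacACTGGTGAGAAACCCtatgaatg
ZNF460: tccacACTGGAGAGAAGCCCtatgagtg
ZNF865: tccacACGGGCGAGAAGCCCttctcctg
ZNF837: tgcacACCGGCGAGAAGCCCtacgcgtg

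The first of these windows occurs in 53 protein-coding genes, 16 of them members, and the second in 14 genes, 7 of them members. The window of ZNF566 occurs in 7 genes and that of ZNF460 in 4, whereas those of ZNF865 and ZNF837 occur in 1 gene each. Only 1 window per gene is shown, and other linkers of the same gene may differ. These examples therefore do not show how sharing relates to the direction of change. Over all members, 517 of 1028 linker windows (50.3%) occur in 2 or more protein-coding genes. Beyond linkers, 171 members shared at least 1 run of 28 nt with another protein-coding gene, and a median of 8.05% of a member's CDS positions lay in such runs, against 0% for all protein-coding genes. After the authors' masking, a median of 54.4% of CDS positions was left for counting (quartiles 17.2 and 79.6, over the 149 members with an entry of their own), and across these members it was smaller where more of the CDS was shared (Spearman's rho −0.59), the 2 measures both being read from the same sequence. Counts of footprints are therefore low limits for many members, and reads of close copies in RNA-seq could be split or lost in a way the files do not show.

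Members were expressed at low levels. On the length-scaled FPKM scale (reads per exon length and library total, computed from the counts), the median member was at 2.89 in the mean of the WT total inputs, against 6.68 for protein-coding genes. The highest was ZNF146 (OZF, a protein made almost only of fingers), at 76.5 and 74.3 FPKM in WT, 76.3 and 72.4 in AKAP1 null, 74.9 and 70.2 in LARP4 null, and 81.5 without CHX. ZNF121 followed at 37.4 FPKM, then ZNF460 at 36.6, ZNF317 at 15.8 and ZNF428 at 14.4. In the 2 WT replicates ZNF121 was at 37.0 and 37.7 FPKM, just above ZNF460 at 36.3 and 36.9. ZNF317 at 15.5 and 16.02 overlapped ZNF428 at 15.9 and 12.9, and ZNF146 was above all others in each replicate. ZNF331, ZNF471 and ZNF528 were the lowest, at 0.0393, 0.136 and 0.139 FPKM.

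The level of most members hardly differed between total inputs. Over the 7 total inputs, the highest and lowest CPM of a member differed by a median log2 of 0.57, against 0.62 for other protein-coding genes, and 5 members (2.72%, against 3.75%) spread over more than a log2 of 2. ZNF91, which represses SVA retroelements, spread most. It was at 1.83 and 5.12 CPM in WT, 6.77 and 0.359 in AKAP1 null, 0.209 and 13.1 in LARP4 null, and 2.98 without CHX. The 2 replicates of the LARP4 null line thus held its lowest and highest values. ZNF85 was at 3.23 and 5.18 CPM in WT, 3.51 and 0.335 in AKAP1 null, 7.03 and 5.78 in LARP4 null, and 7.45 without CHX. ZNF331 ranged from 0.183 CPM in WT replicate 1 to 3.53 in LARP4 null replicate 1. In the pulldowns, ZNF91 followed its total input, with 0.103 and 13.7 CPM in the 2 LARP4 null replicates. In bulk samples, fewer expressing cells and less RNA per cell cannot be told apart, and what sets these replicates apart was not tested.

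Between genotypes, no member passed the test in total mRNA. In the AKAP1 null line against WT, 0 of 184 members passed an adjusted p of 0.05 in edgeR's quasi-likelihood test with Benjamini-Hochberg adjustment (0% of all 14288 genes), with a median log2 of −0.05, and 11 had an unadjusted p below 0.05. In the LARP4 null line against WT, 0 members passed (0.007% of all genes in either direction), with a median of 0.02 and 5 below an unadjusted p of 0.05. Between both null lines, 0 passed (0% of all genes), with a median of −0.09 and 8 below 0.05. DESeq2 and the fit with replicate numbers as a block gave 0 members as well.

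The main question of the RNA-seq was which mRNAs are recovered with ribosomes at the OMM. In WT cells most zinc-finger mRNAs were recovered less than the typical mRNA. The pulldown held less than the total input for 131 of 184 members, 71.2%, where 45.8% of all genes were lower. It held more for 9, 4.89%, where 19.4% of all genes were higher. The median log2 ratio of pulldown over total input was −0.70 for members (quartiles −0.94 and −0.31) and −0.30 for all genes, and 141 members lay below the median gene. Scaling by TMM moved the median gene to 0.01 and the members to −0.38, with 87 lower and 18 higher (26.9% and 30.6% of all genes). Such scaling shifts all genes of a library alike, so it could not change the distance of −0.40 between them. With 1 WT lysate left out, 85 members (without replicate 1) or 73 (without replicate 2) were lower, where 4352 or 3715 of all 14288 genes were, and 6 or 4 higher, where 12.8% or 11.7% were. As a share of all reads, the members made up 0.430% and 0.425% of the WT total inputs and 0.274% and 0.265% of the pulldowns.

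**Figure D1:**
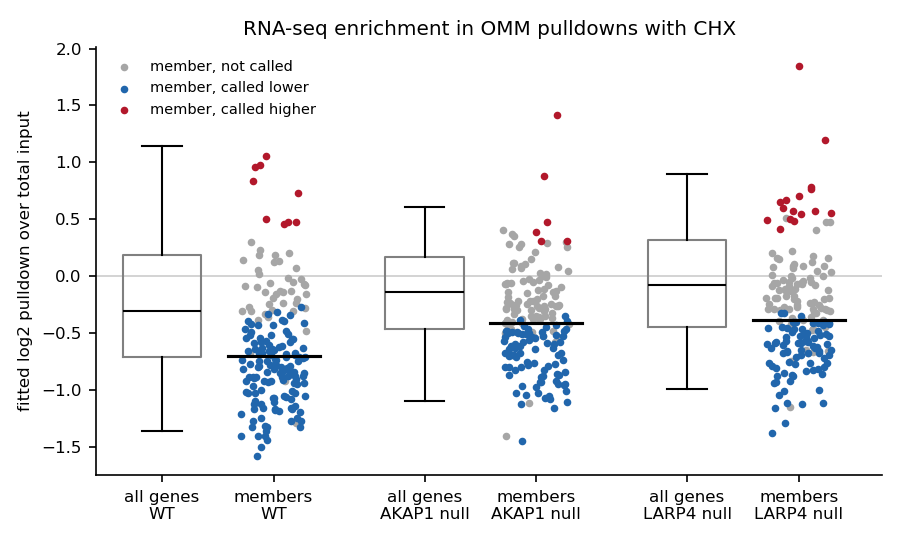
Each point is 1 of the 184 members, placed by genotype (horizontal) and by its fitted log2 ratio of pulldown over total input in RNA-seq (vertical), blue where called lower, red where called higher and grey where not called at an adjusted p of 0.05, with a line at the members' median. Boxes give the median and quartiles of all 14288 genes, with whiskers from percentile 5 to 95. Members centre on −0.70 in WT, −0.41 in AKAP1 null and −0.38 in LARP4 null, each below the median gene.

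ZNF566 fell most. This KRAB zinc-finger gene (ENSG00000186017, chr19:36445119-36489902, GRCh38) was at 20.1 and 19.7 CPM in the WT total inputs and at 7.48 and 5.93 CPM in their pulldowns. The groups did not overlap, and the log2 change was −1.57 ± 0.143 (SE, adjusted p = 4.44e-05 in edgeR's quasi-likelihood test with Benjamini-Hochberg adjustment, which holds for the adjusted p-values that follow). ZNF8 (ENSG00000278129, chr19:58278955-58302791) went from 46.9 and 42.8 CPM to 16.8 and 15.02 CPM, a log2 change of −1.49 ± 0.156 (adjusted p = 8.33e-05). ZNF805 (ENSG00000204524, chr19:57240632-57262728) went from 40.3 and 39.6 CPM to 15.2 and 14.3 CPM, −1.44 ± 0.137 (adjusted p = 5.29e-05). In both genes each pulldown was below each total input by more than the replicates differed. ZNF224 (ENSG00000267680, chr19:44094361-44109886), a repressor known from the promoter of aldolase A, went from 35.2 and 31.3 CPM to 13.6 and 11.6 CPM, −1.40 ± 0.208 (adjusted p = 0.000471). These falls are not confined to rare mRNAs: ZNF460 went from 145 and 148 CPM to 56.6 and 60.7 CPM, and ZNF121 from 268 and 273 CPM to 116 and 112 CPM.

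A small group went the other way. ZNF837 (ENSG00000152475, chr19:58367618-58381030) was at 1.56 and 1.11 CPM in the total inputs and 3.52 and 2.14 CPM in the pulldowns, a log2 change of 1.06 ± 0.261 (adjusted p = 0.00685). ZNF865 (ENSG00000261221, chr19:55605647-55617269) went from 12.9 in both to 24.6 and 26.2 CPM, 0.98 ± 0.251 (adjusted p = 0.00852). ZNF524 (ENSG00000171443, chr19:55600022-55603138) went from 1.88 and 1.92 CPM to 3.38 and 4.01 CPM, 0.96 ± 0.220 (adjusted p = 0.00486). All pulldowns of these 3 genes were above all total inputs. ZNF414 (ENSG00000133250, chr19:8509678-8514167) went from 8.27 and 6.03 CPM to 14.6 and 10.9 CPM, 0.84 ± 0.130 (adjusted p = 0.000617). With 1 WT replicate left out, the adjusted p of ZNF837 was 0.107 or 0.0595 and that of ZNF865 0.0700 or 0.0987. That of ZNF524 was 0.102 without WT replicate 2, while its direction, like those of ZNF837 and ZNF865, stayed.

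Members known for distinct roles lay between these ends. ZNF274, which marks the 3′ ends of zinc-finger genes with heterochromatin, went from 14.0 and 11.97 CPM to 9.13 and 7.81 CPM (log2 −0.62, adjusted p = 0.0063). ZNF473 (ZFP100), which takes part in processing histone mRNAs, went from 47.2 and 49.7 to 37.9 and 42.3 CPM (−0.27, adjusted p = 0.0387), the smallest of the called falls. ZNF146 went from 317 and 308 to 249 and 253 CPM (−0.32, adjusted p = 0.0268). ZNF91 fell by 1.19 on the log2 scale (adjusted p = 0.00123) despite its uneven level, and ZNF85 by 1.07. The paralogous pair ZNF587 and ZNF417, whose reads could be assigned to either copy, had log2 values of −1.16 and −1.27. ZNF649 fell by 0.48 (adjusted p = 0.0342), while ZNF45 at −0.29 (adjusted p = 0.108) and ZNF331 at −1.29 (adjusted p = 0.19, at few reads) did not pass.

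In the null lines, too, the median member lay below the median gene. In the AKAP1 null line 83 members were lower, where 28.7% of all genes were, and 6 higher (13.5% of all genes), with a median log2 of −0.41 against −0.14 for all genes. In the LARP4 null line 82 were lower (29.9% of all genes) and 16 higher (21.7%), with a median of −0.38 against −0.08. All 83 members lower in AKAP1 null and all 82 lower in LARP4 null were among the 131 lower in WT, 63.4% and 62.6% of those 131, and 72 were lower in all 3 genotypes. All 6 members higher in AKAP1 null were higher in WT and in LARP4 null too, and no member was called in opposite directions. Overlaps over all genes were not counted, here or below, and whether these overlaps are particular to members was not tested. Across the 184 members, the fitted log2 values of WT correlated with those of AKAP1 null (Pearson's r 0.88, Spearman's rho 0.87) and of LARP4 null (r 0.91, rho 0.89), values that come from separate libraries of 1 fit and share gene length and base composition. Leaving out AKAP1 null replicate 1 or 2 left 24 or 18 members lower (8.73% or 5.96% of all genes) and 0 higher (3.39% or 3.72%). In the LARP4 null line without replicate 2, the lysate with high MALAT1, 127 members were lower (39.7% of all genes) and 12 higher (22.9%), with a median of −0.62 against −0.17. Without replicate 1, 59 were lower (32.1%, near the 28.1% of all genes) and 30 higher (16.3% against 27.9%), with a median of −0.13 against 0.00. Without replicate 2, 118 of the 127 lower members were lower in WT (92.9%, and 90.1% of the 131), 80 were lower in all 3 genotypes, 6 were higher in all 3, 0 were called in opposite directions to WT, and r with WT was 0.93 (rho 0.92).

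ZNF865 had the highest value in both null lines. It went from 11.1 and 10.1 CPM to 30.2 and 26.4 CPM in AKAP1 null (log2 1.42 ± 0.254, adjusted p = 0.00324). In LARP4 null it went from 10.2 and 11.99 CPM to 22.7 and 67.0 CPM (1.84 ± 0.257, adjusted p = 0.000654), and the pulldown of replicate 2 was the one far above. Without replicate 2 its log2 value was 1.15, and those of ZNF837 and ZNF414 were 0.76 and 0.73, all with an adjusted p below 0.05. ZNF837 (0.88 and 1.20) and ZNF414 (0.47 and 0.77) were called higher in both null lines, and ZNF787 in AKAP1 null (0.39 ± 0.0971, adjusted p = 0.0131). In AKAP1 null, the adjusted p of all 4 genes was above 0.05 once either replicate was left out, the lowest being 0.0733 for ZNF865. At the other end, ZNF573 went from 8.02 and 17.0 CPM to 3.29 and 5.68 CPM in AKAP1 null (−1.44 ± 0.159, adjusted p = 0.000419) and from 16.9 and 13.7 to 5.94 and 6.53 CPM in LARP4 null (−1.29 ± 0.154, adjusted p = 0.000336). ZNF566 fell by 1.10 and 1.38, ZNF8 by 1.15 in AKAP1 null, ZNF431 by 1.12 there (adjusted p = 0.0536 without replicate 2), and ZNF460 and ZNF529 by 1.15 and 1.12 in LARP4 null. Without LARP4 null replicate 2, ZNF573 fell by 1.51, ZNF566 by 1.59, ZNF460 by 1.46 and ZNF529 by 1.32.

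The differences between genotypes were tested directly. For AKAP1 null minus WT, 0 of 184 members passed in either direction, where 6.15% of all genes were higher and 7.52% lower. The median difference was 0.25 for members and 0.19 for all genes (0.07 and 0.01 with TMM), 15 members had an unadjusted p below 0.05, and DESeq2 gave 0. For LARP4 null minus WT, 0 members passed (0% of all genes in either direction), with medians of 0.28 and 0.17, 21 members below an unadjusted p of 0.05 and 0 by DESeq2. Without LARP4 null replicate 1, 109 members (59.2%) were higher than in WT, where 4623 of all genes (32.4%) were, and without replicate 2 there were 0 (0.021% of all genes), so that comparison turned on the lysate with high MALAT1. Both comparisons share the WT libraries.

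**Figure D2:**
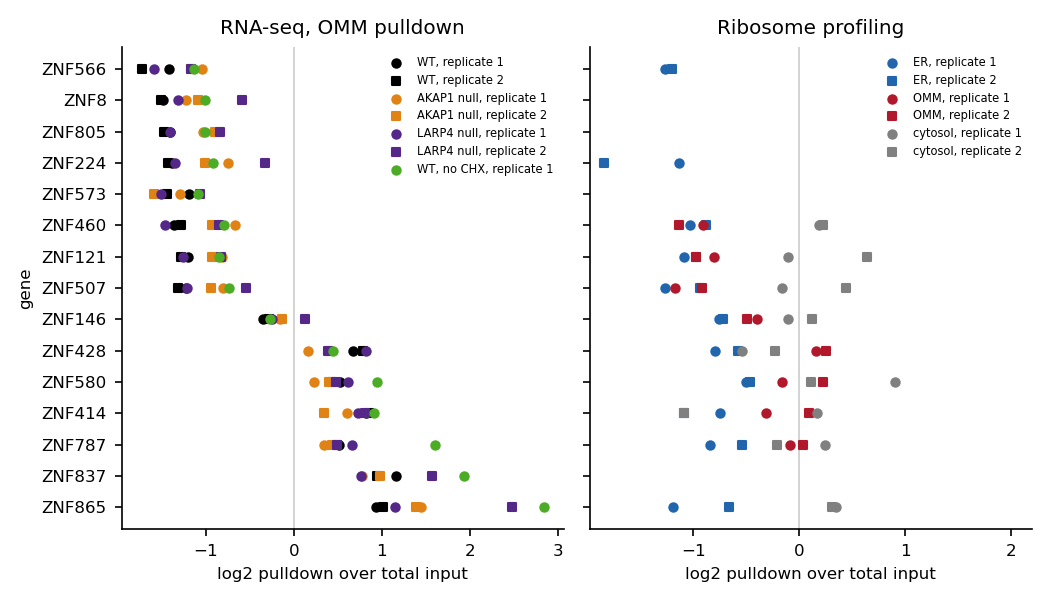
Each row is a named member and each point 1 lysate, with the log2 ratio of pulldown over total input on the horizontal axis (0.5 counts added), RNA-seq lysates by genotype in one panel and ribosome profiling lysates by location in the other. ZNF566, ZNF8 and ZNF805 lie below 0 in all RNA-seq lysates, and ZNF865 and ZNF837 above 0 in all.

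Lysate by lysate the direction repeated: 106 members (57.6%) were below 0 in all 7 RNA-seq lysates, against 34.2% of all genes, and 13 (7.07%) were above 0 in all 7, against 18.5%. In the 6 lysates other than LARP4 null replicate 2, 136 were below 0 (41.5% of all genes) and 13 above (19.4%). The share of reads in members was lower in the pulldown than in the total input in each lysate, from a log2 of −0.68 in WT replicate 2 to −0.15 in LARP4 null replicate 2. Member values of both replicates correlated with r of 0.92 in WT, 0.86 in AKAP1 null and 0.71 in LARP4 null. Cells without CHX, a single lysate that allows no test, had a median member at −0.45 and a median gene at −0.13. There, 14 members were below −1, against 6.49% of all genes, and 4 above 1, against 7.81%. The 4 were ZNF865 (8.64 to 61.8 CPM), ZNF837 (1.86 to 7.13 CPM), ZNF787 (9.30 to 28.3 CPM) and ZNF784. The pulldown without CHX held MALAT1 at 4784 CPM. Its total input matched the WT total inputs for most members, with a median log2 of 0.04 and 2 members below −1 (3.63% of all genes) and 7 above 1 (4.63%). The ratio without CHX minus that of WT with CHX had a median of 0.21 for members and 0.16 for all genes. Of the members, 3 were above 1 (6.05% of all genes) and 0 below −1 (1.04%). CHX, labelling time and a possible difference of cell line cannot be told apart.

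Within the family, the values went with base composition, transcript length and shared sequence. All 9 members higher in WT (ZNF414, ZNF428, ZNF524, ZNF576, ZNF580, ZNF581, ZNF787, ZNF837 and ZNF865) lacked the KRAB pattern and had a CDS of 62.4% to 74.8% G+C, while the 131 lower members had 35.97% to 60.9%. Of the 119 members with the KRAB pattern, 95 were lower and 0 higher (median −0.74), and of the 65 without, 36 were lower and 9 higher (median −0.54). By G+C content, 56 of 61 members with the least were lower (median −0.90), 48 of 61 with intermediate content (−0.74), and 27 of 62 with the most, which held all 9 higher members (−0.32). By length of the longest transcript, 28 of 61 short members (867 to 2780 nt) were lower, with a median of −0.42, and 59 of the 62 longest, with a median of −0.91. The number of fingers went with the value only weakly: rho was −0.16 for fingers, −0.53 for transcript length and 0.45 for G+C over 184 members. For the share of CDS positions in runs of 28 nt found in other genes it was −0.41 (−0.06 over protein-coding genes). The 61 members with the least such sequence had a median of −0.31 and held all 9 higher members, and the others had medians of −0.80 in both groups. These features are themselves correlated (rho −0.27 between length and G+C, −0.55 between shared sequence and G+C), and the part of ambiguous reads in the result was not tested.

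**Figure D3:**
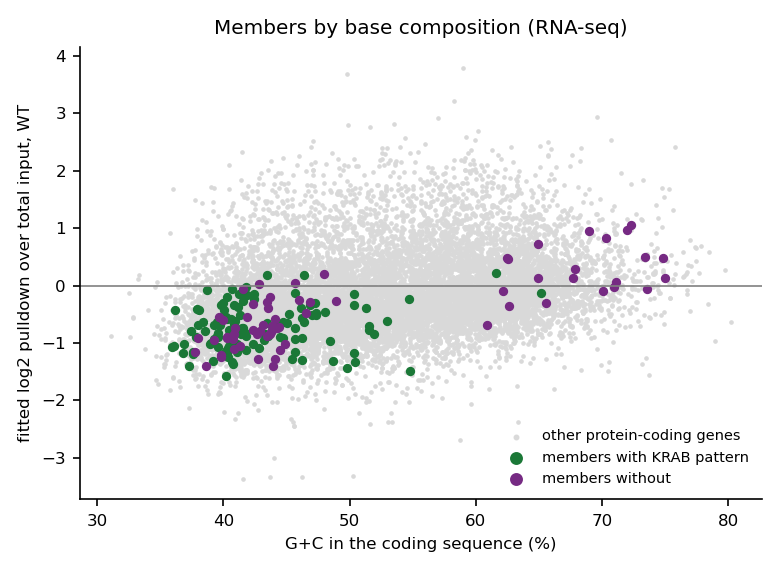
G+C content of the coding sequence (horizontal, %) against the fitted log2 ratio of pulldown over total input in WT (vertical), with other protein-coding genes in light grey and members coloured by the presence of the KRAB pattern. Members under 50% G+C lie mostly below 0, and the 9 higher members lie at 62.4% or above.

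Other protein-coding genes showed the same relations, with rho of −0.65 for transcript length and 0.37 for G+C over 12249 genes. At like length members lay below other genes: the median was 0.14 against 0.42 under 2000 nt, −0.51 against −0.11 from 2000 to 3000 nt, −0.71 against −0.40 from 3000 to 5000 nt and −1.02 against −0.73 from 5000 nt. At like G+C the distance was −0.23 below 40%, −0.22 from 40% to 45%, −0.07 from 45% to 50% and −0.50 from 50% to 60% (11 members, 9 of them lower). The 23 members at 60% or above had a median of 0.14 against 0.01. No test was made of either, and the part of length and base composition in the result was not tested. The 212 ZNF-numbered genes of other chromosomes had a median of −0.60 (145 lower and 7 higher), and the 664 other protein-coding genes of chromosome 19 a median of 0.11 (159 lower and 247 higher). Zinc-finger genes of other chromosomes were thus closer to the members than the members' own neighbours on chromosome 19 were, a comparison of medians that was not tested.

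Along the chromosome, members less than 1 Mb apart form 18 groups. The group of 10 from ZNF66 to ZNF100 (chr19:20776304-21767579) had the lowest median among groups of 10 or more, −1.06, with all 10 lower. The 23 members from ZNF565 to ZNF573 (chr19:36182276-37817300) had a median of −0.87 (20 lower) and the 29 from ZNF175 to ZNF331 (chr19:51571283-53580269) one of −0.81 (25 lower). The group at the end of the long arm, 49 members from ZNF628 to ZNF446 (chr19:55476617-58481230), was the most mixed, with 27 lower, 6 higher and a median of −0.51. It holds ZNF524, ZNF865, ZNF580, ZNF581, ZNF787 and ZNF837 as well as ZNF8, ZNF460 and ZNF805.

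In ribosome profiling the members were thinly covered. Over the 148 members with their own entry and countable CDS positions, 0.124% to 0.136% of footprints in the 6 total inputs fell in members, while the same 148 genes took 0.360% to 0.380% of RNA-seq reads. Only 33 members reached 64 footprints in both total inputs of the ER line, 19 in the OMM line and 18 in the cytosol line. At a mean of 1024 to 4096 RNA reads, 10 of 75 members (13.3%) passed the minimum in the OMM line, against 62.8% of protein-coding genes. At 4096 or more 4 of 8 did, against 85.5%. Of these 75 and 8 members, 66 and 7 had an entry of their own, without which a member could not pass. Masking also lowers the counts of many members. Tests by location therefore cover few members, those with the most footprints.

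Per location, the share of footprints in members was lower in the pulldown than in the total input at both membranes and about equal in the cytosol. It was 0.126% and 0.130% in the ER total inputs and 0.0684% and 0.0731% in the ER pulldowns. It was 0.134% and 0.136% in the OMM total inputs and 0.100% and 0.0971% in the OMM pulldowns, and 0.124% and 0.130% against 0.128% and 0.137% in the cytosol. All ER and OMM pulldowns were below all total inputs, and each cytosolic pulldown lay slightly above its own total input. The share in ZNF-numbered genes of other chromosomes moved the same way, so this was not particular to members. It went from 0.588% and 0.558% to 0.297% and 0.301% at the ER. At the OMM it went from 0.627% and 0.573% to 0.415% and 0.416%, and in the cytosol from 0.599% and 0.571% to 0.678% and 0.635%.

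**Figure D4:**
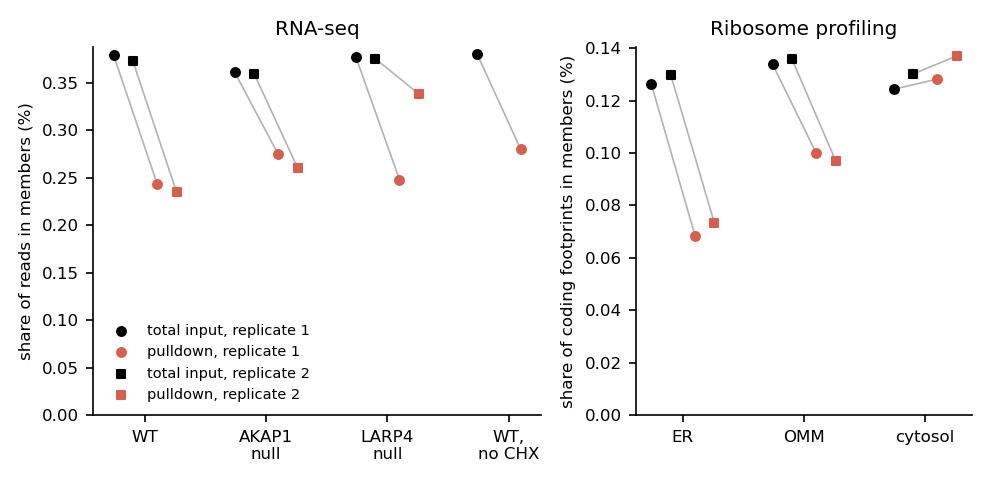
Share of all footprints in coding sequences (ribosome profiling, by location) and of all RNA-seq reads (by genotype) that fell in the same 148 members, in percent on axes from 0, with total inputs in black, pulldowns in red and the replicate number as marker shape. ER and OMM pulldowns lie below their total inputs, cytosolic pulldowns do not.

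Of the 33 members tested at the ER, all 33 were lower in the pulldown, where 72.0% of all genes were, and 0 were higher (19.9% of all genes). Their median log2 was −0.89 against −0.68 for all genes. On the TMM scale, which puts the median gene at −0.03, 10 were lower (30.3%, where 25.4% of all genes were), and DESeq2 called 4 (12.1%, where 21.2% of all genes were). The share of members lower was thus above that of all genes with library totals and TMM, and below it with DESeq2. The lowest was ZNF224, with 6.93 and 10.9 FPM (footprints scaled to all CDS footprints of the library) in the total inputs and 3.15 and 3.03 in the pulldowns (−1.46 ± 0.273, adjusted p = 7.47e-05). ZNF551 (−1.43), ZNF536 (−1.32), a gene expressed in neurons, and ZNF45 (−1.25) followed. With DESeq2 the adjusted p of these 4 genes was 0.0509 to 0.228, and that of ZNF45 without ER replicate 2 was 0.0501.

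At the OMM, 9 of 19 members were lower, a share near the 45.9% of all genes, and 0 higher (17.0%). Their median was −0.47 against −0.38 for all genes. ZNF460 was the clearest: it had 128 and 138 FPM in the total inputs and 67.4 and 62.7 in the pulldowns, with no overlap (−1.05 ± 0.132, adjusted p = 2.95e-06). Its mRNA fell as well in the OMM pulldown. ZNF507 went from 56.0 and 71.9 to 24.4 and 37.9 FPM (−1.01 ± 0.201, adjusted p = 0.000312) and ZNF121 from 58.1 and 93.1 to 32.8 and 47.2 (−0.92 ± 0.192, adjusted p = 0.00047). ZNF579 had the lowest value, from 38.6 and 25.1 to 8.78 and 15.6 (−1.16 ± 0.267, adjusted p = 0.00112). Without OMM replicate 1 it was at −0.69 (adjusted p = 0.0517), and ZNF121 at −0.81 without replicate 2 (adjusted p = 0.0817). Without OMM replicate 1, 5 members were lower (35.3% of all genes), and without replicate 2, 3 (26.7%). With TMM 5 were lower and 3 higher (24.4% and 25.8% of all genes).

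In the cytosol 1 of 18 members was lower (5.95% of all genes) and 1 higher (2.04%), with a median of 0.20 against 0.02. That median was −0.09 with a minimum of 10 footprints (90 members) and −0.07 with counts over all exons (40 members). ZNF428, a small protein with a single finger, went from 102 and 123 to 69.9 and 105 FPM (−0.39 ± 0.113, adjusted p = 0.0383). ZNF580 went from 51.7 and 91.5 to 96.7 and 99.04 (0.53 ± 0.151, adjusted p = 0.0383), a value that rested on replicate 1, without which it was 0.12 (adjusted p = 0.687). DESeq2 called neither.

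Set against the cytosol directly, 15 of 17 members tested at both had a lower ratio at the ER (62.6% of all genes) and 0 a higher one (19.6%). The lowest were ZNF536 (−1.56 ± 0.269, adjusted p = 4.63e-05), ZNF526 (−1.44 ± 0.256, adjusted p = 6.39e-05), ZNF865 (−1.30) and ZNF121 (−1.24). For ZNF526, FPM went from 15.7 and 14.8 to 6.61 and 6.53 at the ER and from 14.7 and 15.2 to 17.6 and 17.0 in the cytosol, opposite directions in each replicate. At the OMM, 7 of 15 members had a lower ratio than in the cytosol (39.7% of all genes), led by ZNF579 (−1.49), ZNF460 (−1.25 ± 0.169, adjusted p = 1.2e-05), ZNF507 (−1.13) and ZNF121 (−1.13). ZNF428 alone was higher (0.61 ± 0.176, adjusted p = 0.00732, against 16.5% of all genes higher). Its OMM values were 90.1 and 92.9 in the total inputs and 100 and 111 in the pulldowns. Without OMM replicate 2 its adjusted p was 0.101, and that of ZNF121 was 0.0545.

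Summed over the family, footprints were few relative to mRNA. If members had the same ratio of footprints per countable CDS position to reads per exon length as protein-coding genes as a whole, 13784 to 48658 footprints would fall in the 148 members, depending on the total input. The observed sums were 0.404 to 0.440 of that in the 6 total inputs, whose footprints and RNA come from different experiments. The same quantity was 0.487 to 0.550 for ZNF-numbered genes of other chromosomes and 1.19 to 1.51 for other genes of chromosome 19. In a fit of footprints in the OMM-line total inputs against RNA in the WT total inputs, centred on the median gene, 9 of 19 members were lower (35.2% of all genes) and 4 higher (34.0%), with a median of −0.53. These 19 were admitted for their many footprints. With a minimum of 10 footprints the median of 91 members was −1.24, that fit again being centred on its median gene. There 60 were lower and 9 higher. The share of all genes at that minimum is not given, so these counts do not show a difference from other genes. Assay and experiment cannot be told apart here, and masking enters through the count of positions.

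The order within the family was wide. ZNF146, the most abundant mRNA, was at −2.05 ± 0.250 (adjusted p = 0.000144), followed by ZNF543 (−2.03 ± 0.231, adjusted p = 9.73e-05), ZNF507 (−1.57) and ZNF526 (−1.42). At the other end were ZNF580 (1.71 ± 0.288, adjusted p = 0.000876), ZNF428 (1.04 ± 0.178, adjusted p = 0.000934), ZNF444 (0.89) and ZNF787 (0.63). ZNF580, ZNF428 and ZNF787 were also among the 9 members higher in the OMM pulldown of mRNA. The value of ZNF787 was 0.16 (adjusted p = 0.576) with the longest transcript as length, and without OMM replicate 1 ZNF444 was at 0.43 (adjusted p = 0.133).

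Footprints before the start codon were frequent in members. In the 6 total inputs, members had 35.6 to 50.9 footprints in the 5′ UTR for every 100 in the CDS, against 7.68 to 14.3 for all protein-coding genes, without overlap. ZNF-numbered genes of other chromosomes had 14.0 to 22.4 and the other genes of chromosome 19 had 6.40 to 12.5. Since masking removed part of the CDS of many members, the 37 with at least 80% of their CDS positions counted are given apart, and they had 22.0 to 33.3. Per countable position, the density in the 5′ UTR was 0.716 to 1.02 of that in the CDS for members and 0.235 to 0.436 for protein-coding genes. For ZNF-numbered genes of other chromosomes it was 0.440 to 0.706, between these ranges. ZNF146 held the most: 3689 footprints in the 5′ UTR and 3330 in the CDS, summed over the 6 total inputs, where 82.1% of its CDS positions were counted. ZNF317 held 1128 against 281, with 17.8% of CDS positions counted. Without the 3 genes with the most, members had 31.9 to 48.8, and those with at least 80% of CDS positions counted 16.2 to 22.3, near the 14.8 to 24.4 of ZNF-numbered genes of other chromosomes.

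**Figure D5:**
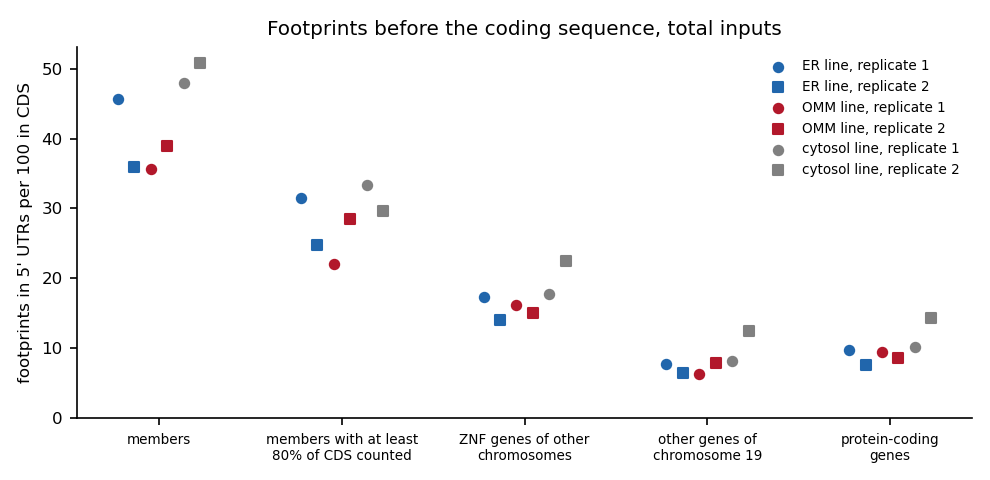
Footprints in the 5′ UTR per 100 footprints in the CDS (vertical) for each of the 6 total inputs of ribosome profiling, by group of genes (horizontal), coloured by line and shaped by replicate. Members lie between 35.6 and 50.9, those with at least 80% of CDS positions counted between 22.0 and 33.3, and all protein-coding genes between 7.68 and 14.3.

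The co-repressors that KRAB zinc-finger proteins act through lay below the median gene at the ER and the OMM and near it in the RNA-seq pulldown. Of 22 genes listed (among them TRIM28, the scaffold that KRAB binds, SETDB1, which methylates histone H3, its partner ATF7IP, and CBX5, which encodes heterochromatin protein 1α), 14 were lower (45.8% of all genes) and 0 higher in the WT RNA-seq pulldown, with a median of −0.34 against −0.30. TRIM28 was at −0.28 (adjusted p = 0.0265), SETDB1 at −0.53, CBX5 at −1.07 and ATF7IP at −1.54, while CBX1 and CBX3, which encode the other heterochromatin proteins of that family, were at 0.01 and 0.10 and did not pass. In ribosome profiling all 19 tested were lower at the ER (72.0% of all genes, median −1.14), 16 at the OMM (45.9%, −0.68) and 2 in the cytosol (5.95%, −0.02), and 0 were higher at any location. CBX1 and CBX3 were at 0.09 each at the OMM and did not pass. TRIM28 had −1.31 at the ER, −0.95 at the OMM and 0.22 (adjusted p = 0.111) in the cytosol. Relative to mRNA, 7 of the 19 had more footprints than the median gene (34.0% of all genes) and 6 fewer (35.2%), with a median of 0.30.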

How the data were processed

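Members and lists were chosen with earlier results of these data known. For ribosome profiling the authors aligned footprints to GRCh38 and deposited estimated counts per gene region (Ensembl 104), leaving 13 nt at each end aside, and RPKM, which were not used for tests. For RNA-seq the authors deposited counts per gene from featureCounts, and values named FPKM that are 10 times FPKM, treated as a score and not used. The labels name polyA RNA, the study's methods rRNA depletion. Entries of several genes (1079 of 58849, holding 35 members) were not tested, and 3 to 7 lines of a broken entry per RNA-seq file were dropped.

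Enrichment was tested with edgeR 4.0.16 (quasi-likelihood, two-sided, R 4.3.3) on counts, estimated counts rounded, in 1 fit per assay of 12 libraries with 1 term for each lysate and 1 pulldown effect for each group. Library totals set the scale, except for total inputs alone (TMM). Genes needed 64 footprints in both total inputs of a location, or a mean of 64 reads. P-values were adjusted over all genes tested, and an adjusted p below 0.05 was called. Footprints relative to mRNA used 4 total inputs with offsets for length. Total input and pulldown come from the same lysate by the study's methods. Deviations of same-numbered libraries correlated at 0.65 to 0.87 in RNA-seq and 0.51 to 0.85 in ribosome profiling. Named members are the 4 highest and 4 lowest called with the same sign in both replicates, the 5 highest and 3 lowest levels and a fixed list. Coordinates, proteins and sequences are from GENCODE 44 (Ensembl 110). A finger was C..C, 12 residues, H, 3 to 5 residues, H. Alternatives were TMM, DESeq2 1.42.0, other minimums, counts over exons, other lengths, no term per lysate and leaving out replicates. Scripts were tested on simulated data.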

Additional observations from a re-analysis of the deposited data

Results flagged for a closer look

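Results by location are listed because the difference between locations was itself tested, by the contrast of both pulldown effects in edgeR's fit. At the OMM minus the cytosol 7 members were lower (39.7% of all genes) and 1 higher (16.5%). At the ER minus the cytosol 15 were lower (62.6% of all genes). The values for OMM minus cytosol were 0.61 for ZNF428, −1.49 for ZNF579, −1.25 for ZNF460, −1.13 for ZNF507 and −1.13 for ZNF121. Those for ER minus cytosol were −1.56 for ZNF536, −1.44 for ZNF526, −1.30 for ZNF865 and −1.24 for ZNF121. The share of footprints in members moved in opposite directions from total input to pulldown: its log2 ratio was −0.88 and −0.83 at the ER and −0.42 and −0.48 at the OMM, against 0.0441 and 0.0740 in the cytosol. That difference in shares was not tested, and the share in ZNF-numbered genes of other chromosomes moved in the same directions.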

How the results depend on the processing

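No value of a named gene reversed under the alternatives run, but some medians of members changed sign. The cytosol median of 0.20 was −0.09 with a minimum of 10 and −0.07 over all exons, and the median of 0.02 in LARP4 null total inputs was −0.01 without LARP4 null replicate 1 and −0.0031 with library totals. Relative to the median gene, OMM minus cytosol went from −0.24 to 0.06 with the stricter minimum, OMM from −0.09 to 0.03 without OMM replicate 2, and LARP4 null minus WT from 0.11 to −0.04 without LARP4 null replicate 2. Of the counts of members, 99 alternative values stayed within 1.5 times the reported one and 57 moved, and of values for single named genes 221 kept their side of the threshold and 30 lost it, besides those with a replicate left out (72 and 16, and 112 and 24). The members' median relative to the median gene in WT RNA-seq ranged from −0.40 to −0.35 over all settings without a replicate left out. Settings that only rescale libraries, as TMM does, could not move it. Apart from fewer genes or samples, the cause of each move was not tested.

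With TMM, lower and higher members were 87 and 18 in WT (26.9% and 30.6% of all genes), and 12 were higher in AKAP1 null (20.3%). At the ER 10 were lower, at the OMM 5 lower and 3 higher, and in the cytosol 0 higher. For OMM minus cytosol 4 were lower and for ER minus cytosol 6, and without CHX 6 were below −1 and 8 above 1. With DESeq2, lower and higher members were 78 and 15 in WT (25.7% and 28.5% of all genes) and 53 and 11 in AKAP1 null (17.6% and 20.5%). In ribosome profiling they were 4 lower at the ER, 4 and 2 at the OMM, and 0 and 0 in the cytosol. For OMM and ER minus cytosol 4 and 3 were lower. With a minimum of 10 they were 78 lower at the ER, 21 and 1 at the OMM, 2 higher in the cytosol, 11 and 3 for OMM minus cytosol, 44 lower for ER minus cytosol, and 60 and 9 for footprints relative to mRNA. With the stricter minimum (4 times the main one) 6 members were lower at the ER, 3 at the OMM, 1 for OMM minus cytosol and 2 for ER minus cytosol, with 3 and 1 for footprints relative to mRNA, and 2 above 1 without CHX. Counted over all exons they were 66 lower at the ER, 20 and 1 at the OMM, 2 and 2 in the cytosol, 2 higher for OMM minus cytosol and 25 lower for ER minus cytosol. With the ER-line total inputs 23 members were lower relative to mRNA. The share of all genes called also moved with the setting (45.8% lower in WT with library totals). For ribosome profiling and footprints relative to mRNA, the number of members tested and that share are not given for each setting. These counts alone therefore do not measure a change in members.

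Without the block of lysates, against the pairing given by the methods, 90 members were lower in WT (30.5% of all genes). Lower and higher members were 39 and 1 in AKAP1 null (11.7% and 4.42%) and 36 and 8 in LARP4 null (15.1% and 10.8%). In ribosome profiling 20 were lower at the ER, 3 at the OMM and 3 for ER minus cytosol. None was called in the cytosol or for OMM minus cytosol. The share of all genes without the block is not given for ribosome profiling, so these counts were not set against it. Blocking total inputs by replicate number changed no call.

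With each replicate left out in turn, the group left with 1 lysate borrows the spread of the others. The share of all genes called, not given here, also moved in RNA-seq, so the counts that follow do not alone measure a change in members. Lower members then numbered 73 to 85 in WT, 18 to 24 in AKAP1 null, 59 to 127 in LARP4 null, 24 to 28 at the ER, 3 to 5 at the OMM, 4 to 8 for OMM minus cytosol, 13 to 16 for ER minus cytosol and 9 to 10 relative to mRNA. Higher members numbered 4 to 6, 0, 12 to 30, 0 to 2 for OMM minus cytosol, 2 to 5 relative to mRNA and 0 to 109 for LARP4 null minus WT. Depth limits ribosome profiling: the median member had 2.0 and 6.0 footprints in the OMM pulldowns.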
